A study of Bos taurus and Felis catus with 14 samples.

Results

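The set described here holds the predicted hairpin precursors of 7 microRNA families known from blood and immune cells, mir-142, mir-144, mir-451, mir-146, mir-150, mir-155 and mir-223. Members were taken by family name from the deposited bovine and feline call sets, with antisense names (those starting as-) left out. They numbered 15 of the 1305 loci in both sets, 7 of 810 in the cow and 8 of 495 in the cat. The bovine set rested on 10 small RNA libraries from 3 Angus steers, 1 library each from bone marrow, submandibular lymph node, dental pulp, iris, retina, optic nerve, oral papillae, penis, brain stem and hoof corium. Of these, 8 came from 1 steer, and the brain stem and the corium each came from another. The feline set rested on 4 libraries, 2 of normal haired skin and 2 of normal skeletal muscle, from 3 older, neutered male domestic short hair cats, 1 of which gave both tissues. No treatment or genetic change is stated for any animal. All libraries of a species were called together, so each species had 1 list of loci, without replicates and without a read number or expression value for any locus. Read numbers per tissue given elsewhere by the study were not analysed here, so the labelled tissues were not checked by expression, and the counts and positions below are descriptions with no test.

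A microRNA precursor is a folded RNA in which the base-paired arms of a stem are joined by a loop. Drosha frees the hairpin from a longer transcript, Dicer cuts off the loop, and 1 strand of the remaining duplex, from the 5′ arm (5p) or the 3′ arm (3p), guides Argonaute to messenger RNAs. miR-451 is the textbook exception, since its short hairpin is cut by Argonaute 2 instead of Dicer. miR-142 is found throughout the blood lineages, miR-144 and miR-451 are made together in red cell precursors, and miR-223 marks granulocytes and their precursors. miR-150 is abundant in mature lymphocytes, miR-155 rises in activated lymphocytes and macrophages, and miR-146a and miR-146b are induced by inflammatory signals and restrain Toll-like receptor signalling.

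In the cow, 6 of the 7 families had a locus, and in the cat all 7 had one. mir-451 was the family with no locus in the bovine set. The mir-146 family had 2 loci in each species and every other family present had 1. All 7 bovine members carried the plain name of an annotated microRNA. Of the 8 feline members, 4 carried such a name. The other 4, of the families mir-142, mir-146, mir-223 and mir-451, carried the family name with a suffix. They are called here by species and family. Such names stand in the paper for predictions related to a known family, among them feline miR-133 and let-7 loci. For its clusters, the paper took annotated loci from miRBase in the cow and from an earlier feline study in the cat. Counts of plain names may therefore not be comparable between the species. The share of plain names over all loci was not counted, so nothing is read from these counts. None of the 22 bovine and 5 feline antisense names belonged to any of the 7 families. The bovine members lay on 6 chromosomes, 2 on the plus strand and 5 on the minus strand. The feline members lay on 6 sequences, 6 on the plus strand and 2 on the minus strand. Plus and minus follow each assembly and are not comparable between the species, and the share over all loci was not counted.

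Products from both arms were listed for 7 of the 7 bovine members, in a set where 587 of 810 loci (72.5%) had both. In the cat, 7 of 8 members had both, where 325 of 495 loci (65.7%) did. The member with 1 arm was fca-mir-155. Another predicted locus lay within 10 kb of 1 of the 7 bovine members (235 of 810 loci, 29%) and of 2 of the 8 feline members (165 of 495, 33.3%). The bovine neighbour lay beside mir-142, and the feline neighbours were mir-144 and mir-451, each next to the other.

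**Figure D1:**
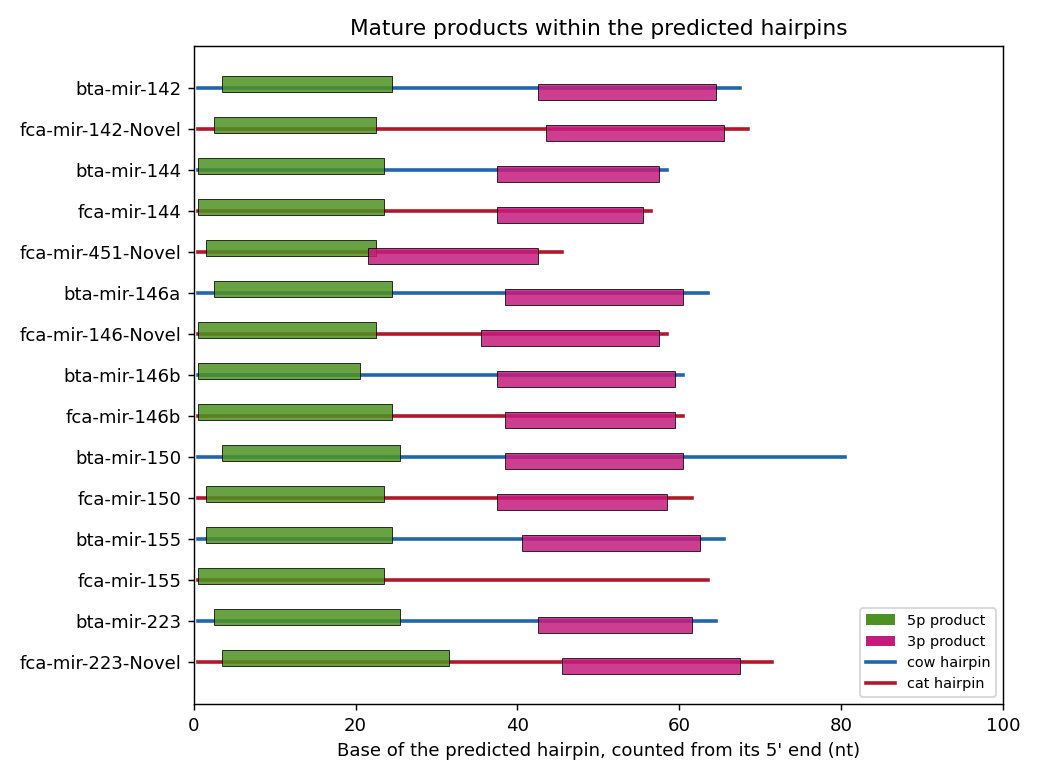
Position of the 5p (green) and 3p (magenta) products within each predicted hairpin, in nt from its 5′ end, with bovine hairpins as blue lines and feline hairpins as red lines. The products of feline mir-451 share 1 base, fca-mir-155 has no 3p product, feline mir-223 has a 5p product of 28 nt, and bta-mir-150 runs on for 20 bases past its 3p product.

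The feline set listed mir-144 and mir-451, the red cell pair, side by side. fca-mir-144 spanned bases 17821626 to 17821681 of NC_018736.2 on the plus strand, and the mir-451 locus spanned bases 17821803 to 17821847 of the same strand. The gap between them was 121 nt, with mir-144 first in the direction of their strand. In the cow, bta-mir-144 lay on the minus strand of chromosome 19 at bases 20797036 to 20797093. Its nearest predicted locus was bta-mir-423, 1002383 nt away. In the RefSeq annotation of the bovine assembly ARS-UCD2.0, consulted by gene name, MIR451 and MIR144 were each the nearest gene to the other, and the nearest protein-coding genes to both were ERAL1 and then FAM222B. The bovine pair was thus present in that annotation, whereas the bovine call set listed only mir-144. Neither the number of bovine reads at the mir-451 site nor its scores in the authors' calling of precursors were analysed here.

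The hairpins of this pair differed in shape. The feline mir-451 hairpin was 45 nt long, and 1 feline locus was shorter. Its 5p product covered hairpin bases 2 to 22 and its 3p product bases 22 to 42, both 21 nt long, so the products met in 1 shared base. It was the 1 locus with such an overlap among the 912 loci of both species with products from both arms. The starts of its products were 20 nt apart. The next smallest distance in the cat was 29 nt, but the smallest in the cow was 21 nt. A product listed from the 3′ arm is thus part of the record of this hairpin, and whether it was a separate mature strand cannot be told from positions. fca-mir-144, of 56 nt, had a 5p product of 23 nt at bases 1 to 23 and a 3p product of 18 nt at bases 38 to 55. Products of 18 nt or less were rare in the cat, at 8 of 820. bta-mir-144, of 58 nt, had the same 5p product at bases 1 to 23 and a 3p product of 20 nt at bases 38 to 57. The products of mir-144 therefore started at the same hairpin bases in both species, and the 3p product ended 2 bases earlier in the cat, as did the hairpin.

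mir-142, found throughout the blood lineages, lay on the same genomic sequence as mir-144 in each species. bta-mir-142 spanned bases 9527313 to 9527379 of chromosome 19 on the minus strand, 11269656 nt from bta-mir-144. The feline mir-142 locus spanned bases 28194382 to 28194449 of NC_018736.2 on the plus strand, 10372700 nt from fca-mir-144. In both species mir-144 lay upstream of mir-142 on the same strand, with upstream and downstream taken along the member's own strand. The bovine hairpin was 67 nt long, with a 5p product of 21 nt at bases 4 to 24 and a 3p product of 22 nt at bases 43 to 64. The feline hairpin was 68 nt long, with a 5p product of 20 nt at bases 3 to 22 and a 3p product of 22 nt at bases 44 to 65. Counted from the 5p start, the feline 3p product began 41 nt on, against 39 nt in the cow. In the RefSeq table, MIR142 lay within the span of TSPOAP1 and of a long non-coding RNA gene, LOC132342998. The table gives no strand or exons, so an exonic or intronic place was not determined.

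bta-mir-142 was the bovine member with a locus within 10 kb. That locus, bta-Novel83, spanned bases 9534051 to 9534108 on the plus strand, opposite to mir-142, at a gap of 6671 nt. It was 58 nt long and had products from both arms. A further locus, bta-Novel88, spanned bases 9540899 to 9540939 on the plus strand, 6790 nt beyond bta-Novel83 and 13519 nt from mir-142. It was 41 nt long and had a 5p product alone. Joined at 10 kb steps, these 3 loci made 1 group, in which mir-142 was the 1 locus on the minus strand. Both of its partners carried names without any known family. In the cat, no locus lay near mir-142, the nearest being fca-mir-378-Novel5 at 595043 nt.

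**Figure D2:**
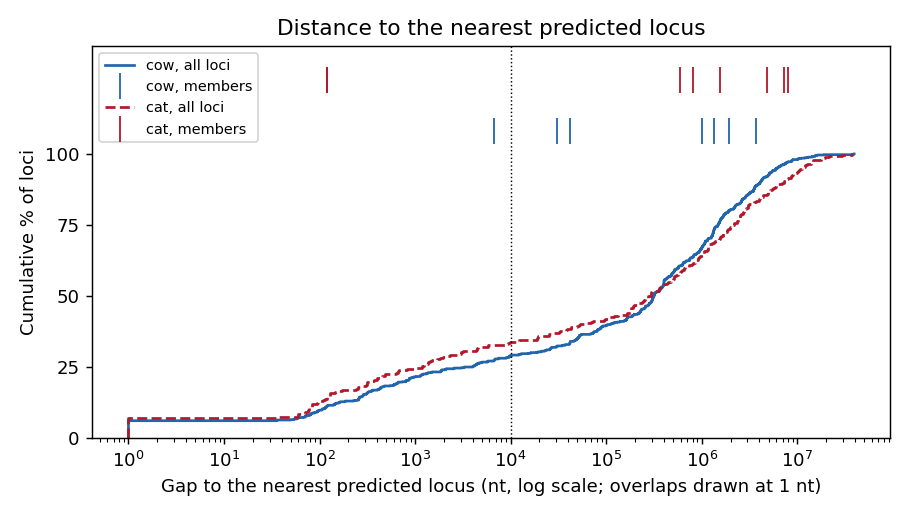
Gap from each member to its nearest predicted locus (short vertical lines, blue for the cow and red for the cat) on a log scale in nt, above the cumulative share of all loci of each species. The dotted line marks 10 kb, with 1 bovine and 2 feline members to its left, the latter both at 121 nt.

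The other members had no locus within 10 kb. Over all members the median gap to the nearest locus was 1.0 Mb in the cow and 1.18 Mb in the cat, beside 0.315 Mb and 0.289 Mb over all loci of each set. bta-mir-146b and bta-mir-150 had a nearest locus within 50 kb, bta-Novel44 at 30453 nt and bta-Novel209 at 41961 nt, each on the opposite strand and without a known family. The bovine loci mir-146a, mir-223 and mir-155 lay 1.33, 1.91 and 3.71 Mb from their nearest loci, which were bta-Novel2, bta-mir-1468 and bta-Novel93. The feline gaps ran from 0.808 Mb between mir-146b and fca-mir-1307 to 7.95 Mb between mir-155 and fca-Novel30. Between these were mir-150 at 1.56 Mb from fca-mir-99b, mir-223 at 4.82 Mb from fca-Novel44 and the other mir-146 locus at 7.31 Mb from a mir-103 locus.

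mir-146 gave 2 loci in each species. miR-146a and miR-146b share their seed and repress the adaptor proteins IRAK1 and TRAF6 of Toll-like receptor signalling. bta-mir-146a spanned bases 74185053 to 74185115 of chromosome 7 on the plus strand, and bta-mir-146b bases 22930915 to 22930974 of chromosome 26 on the plus strand. fca-mir-146b spanned bases 60932511 to 60932570 of NC_018733.2 on the plus strand. The other feline locus, named for the family with no letter a or b, spanned bases 188303095 to 188303152 of NC_018723.2 on the minus strand. bta-mir-146a, of 63 nt, had products of 22 nt at bases 3 to 24 and 39 to 60. That feline hairpin, of 58 nt, had products of 22 nt at bases 1 to 22 and 36 to 57, so that the starts were 35 nt apart against 36 nt in bta-mir-146a. Both mir-146b hairpins were 60 nt long. The 5p product of mir-146b began at the first base in both, and was 20 nt long in the cow and 24 nt in the cat. The 3p product covered bases 38 to 59 in the cow and 39 to 59 in the cat. Nearest protein-coding genes in the RefSeq table were PTTG1 and SLU7 for MIR146A, and C26H10orf95 and CUEDC2 for MIR146B.

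mir-150, the lymphocyte microRNA that represses the transcription factor MYB, had the hairpins whose lengths lay farthest apart among the member pairs. bta-mir-150 spanned bases 56407846 to 56407925 of chromosome 18 on the minus strand, and fca-mir-150 bases 8199360 to 8199420 of NC_018737.2 on the plus strand. The bovine hairpin was 80 nt long, the longest of the 15, with 675 shorter and 132 longer loci in its set. The feline hairpin was 61 nt long. The bovine products, both of 22 nt, lay at bases 4 to 25 and 39 to 60, and the feline products at bases 2 to 23 and 38 to 58. Most of the extra length of the bovine hairpin lay after the 3p product, where 20 bases followed against 3 in the cat, and 3 bases came before the 5p product against 1 in the cat. In the cow, 26 of the 736 loci with a 3p product had at least 20 bases there, and no other member of either species had more than 4.

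mir-155 is processed from the non-coding BIC transcript and rises when lymphocytes and macrophages are activated. bta-mir-155 spanned bases 10227274 to 10227338 of chromosome 1 on the minus strand and was 65 nt long. Its 5p product of 23 nt lay at bases 2 to 24 and its 3p product of 22 nt at bases 41 to 62. fca-mir-155 spanned bases 19099051 to 19099113 of NC_018731.2 on the minus strand and was 63 nt long. It had a 5p product of the same length, 23 nt, at bases 1 to 23. No 3p product was listed, and 40 bases of the hairpin followed the 5p product. The 5p strand is the one long known as miR-155 itself. The feline set thus held that strand alone. In the RefSeq table, MIR155 lay nearest to MRPL39 and then to JAM2.

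mir-223, the granulocyte microRNA, had a short 3p product in the cow and a long 5p product in the cat. bta-mir-223 spanned bases 99936326 to 99936389 of the X chromosome on the minus strand, and the feline locus bases 52865048 to 52865118 of NC_018741.2 on the plus strand. The bovine hairpin of 64 nt had a 5p product of 23 nt at bases 3 to 25 and a 3p product of 19 nt at bases 43 to 61. Bovine products of 19 nt or less numbered 30 of 1397. The feline hairpin of 71 nt had a 3p product of 22 nt at bases 46 to 67 and a 5p product of 28 nt at bases 4 to 31. That 5p product was the 1 product with the word long in its name among 2217 in both species, and the 1 product of 28 nt or more. The longest of the others was 27 nt. No source used here says what the word long stands for. MIR223 lay within the span of VSIG4, a complement receptor gene, and of LOC132344326 in the RefSeq table.

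**Figure D3:**
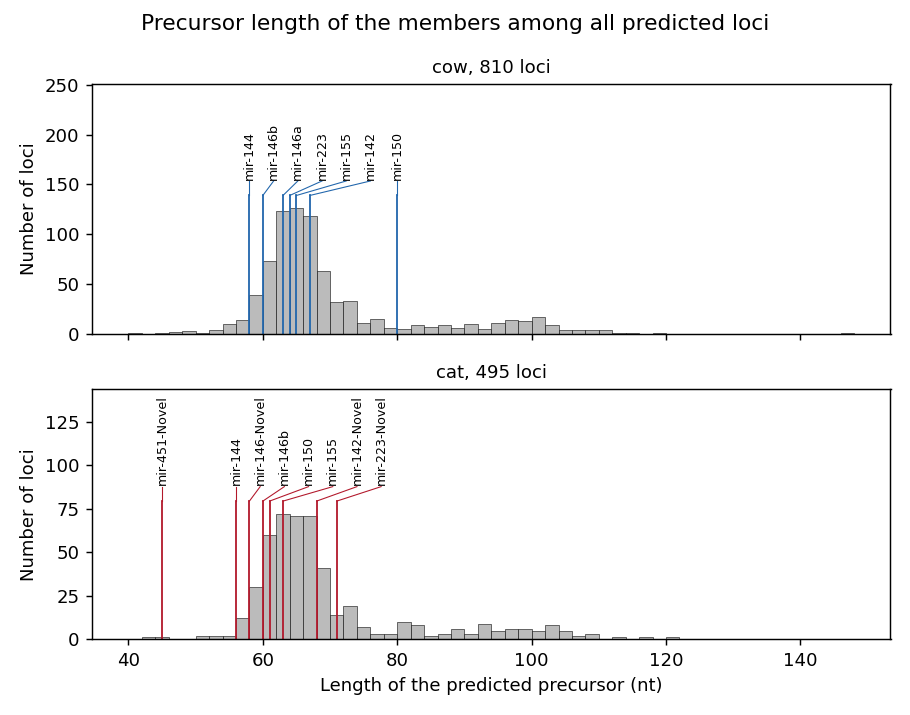
Precursor length of the members (labelled lines) over the histogram of all predicted loci, in nt, for the cow (top) and the cat (bottom). Most members lie under the main peak, with feline mir-451 at 45 nt to its left and bovine mir-150 at 80 nt to its right.

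In precursor length the members lay within the range of the other loci. Precursors ranged from 58 to 80 nt in the cow, with a median of 64 nt, where all 810 loci ranged from 41 to 146 nt around a median of 66 nt. Feline precursors ranged from 45 to 71 nt, with a median of 60.5 nt, where all 495 loci ranged from 42 to 121 nt around a median of 65 nt. The median product length was 22 nt among the members and among all loci of both species. Products of 20 to 24 nt made up 13 of the 14 bovine member products (92.9%, beside 97.1% of all bovine products) and 13 of the 15 feline ones (86.7%, beside 97.1%). The exceptions were the 3p products of bta-mir-223 and fca-mir-144 and the long 5p product of feline mir-223. Of the 15 member 5p products, 6 began at the first base of the hairpin. The share over all loci was not counted, so nothing is read from this number.

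The distance from the first base of the 5p product to the first base of the 3p product was used to compare the species, since it does not depend on where the hairpin was taken to end. Over the members it ranged from 35 to 40 nt in the cow and from 20 to 42 nt in the cat, with a median of 37 nt in both. Over all loci with both arms the median was 38 nt in both species. Bovine and feline loci were paired where they had the same plain name, or where a family had 1 locus in each species. This gave 198 pairs, of which 167 had both arms in both species, and 6 member pairs, of which 5 did. The pairing rests on names, and sequences were not compared.

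The starts were equally spaced in 1 of the 5 member pairs, where 130 of the 167 pairs (77.8%) were. The equal pair was mir-144, at 37 nt in both species. In the other 4 pairs the distance between starts was larger in the cat. mir-146b had 37 nt in the cow and 38 nt in the cat, and mir-150 had 35 nt and 36 nt. mir-142 had 39 nt in the cow and 41 nt in the cat, and mir-223 had 40 nt and 42 nt. bta-mir-146a and the other feline mir-146 locus, which the rule did not pair, went the other way, at 36 nt and 35 nt. Over all pairs, 19 were wider and 18 narrower in the cat, and 19 of these 37 differed by at least 2 nt. Measured instead as the gap between the facing ends of the products, mir-142 (18 nt in the cow and 21 nt in the cat) and mir-150 (13 and 14 nt) stayed wider in the cat, whereas mir-146b and mir-223 turned to 17 nt in the cow and 14 nt in the cat. With a difference of up to 1 nt between starts allowed, 3 of the 5 member pairs and 148 of 167 pairs (88.6%) were equal. A different distance between starts can stem from another product start or from bases gained or lost in the hairpin, and these cannot be told apart from positions.

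**Figure D4:**
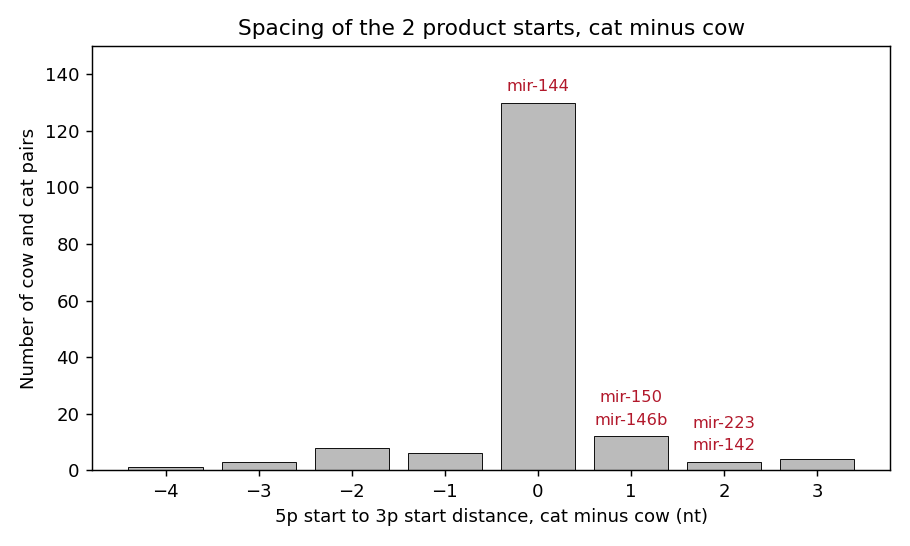
Number of bovine and feline pairs (bars) by the difference in 5p start to 3p start distance, cat minus cow, in nt, over the 167 pairs with products from both arms. mir-144 stands at 0, mir-146b and mir-150 at 1 nt and mir-142 and mir-223 at 2 nt.

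The surroundings of the members were then compared between the species. For each pair, the microRNA families with a locus within 10 Mb of the member in both species were listed, with their side and their strand relative to the member. All 6 member pairs shared at least 1 family, as did 170 of the 198 pairs (85.9%). The nearest shared family lay on the same side and the same relative strand in 5 of the 6, where 160 of 170 pairs (94.1%) did so. The exception was mir-223.

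mir-142 and mir-144 had between them one stretch of families in the same order. Within 10 Mb, mir-142 shared 4 families, all on the same side and relative strand. mir-301 lay 0.822 Mb upstream in the cow and 0.761 Mb in the cat, and mir-21, whose oncogenic role is well known, lay 1.51 and 1.37 Mb upstream on the opposite strand. mir-365 and mir-193 lay between 8.63 and 9.3 Mb upstream in both. mir-144 shared 7 families that lay within this limit in both species, again all on the same side and relative strand. mir-423 was the nearest, at 1002383 nt upstream in the cow and 1151106 nt in the cat. mir-193 and mir-365 lay downstream of mir-144 at 1.97 and 1.99 Mb in the cow and at 1.73 and 1.74 Mb in the cat. Upstream, mir-22 lay at 2.59 and 2.83 Mb, and mir-132 and mir-212, a pair known from neurons, at 2.85 Mb in the cow and 3.12 Mb in the cat. Within 20 Mb, mir-142 shared 9 families and all 9 kept side and strand, while mir-144 shared 17, of which 9 did. Some of those that did not lay within 10 Mb of mir-144 in 1 species and beyond it in the other, and so were not among the 7. mir-33 lay 14.5 Mb upstream on the opposite strand in the cow but 6.2 Mb upstream on the same strand in the cat. mir-195 and mir-497 lay 6.64 Mb upstream on the same strand in the cow but 15.8 Mb upstream on the opposite strand in the cat.

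The loci mir-146b, mir-150 and mir-155 kept the few families they shared. For mir-146b this was mir-1307, 1.3 Mb downstream in the cow and 0.808 Mb in the cat, on the opposite strand in both. mir-150 shared 5 families. The group of mir-99, let-7 and mir-125 lay 1.61 Mb upstream in the cow and 1.56 Mb in the cat on the opposite strand, mir-330 lay 2.75 and 2.65 Mb downstream, and mir-935 lay 5.69 and 4.24 Mb upstream. mir-155 shared 3 families, which were again mir-125, let-7 and mir-99, at 9.65 to 9.7 Mb upstream in the cow and 7.97 to 8.02 Mb in the cat, all on the same strand as mir-155. The loci were different copies in the 2 cases, mir-99b, let-7e and mir-125a near bovine mir-150 and mir-99a, let-7c and mir-125b-2 near mir-155.

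The name of the other feline mir-146 locus does not say whether it matches mir-146a, and the pairing rule left it out. Beside bta-mir-146a it shared no family within 10 Mb. Within 20 Mb it shared 3, mir-378, mir-145 and mir-143, all upstream and on the same strand. mir-378 lay 11.1 Mb away in the cow and 9.27 Mb in the cat, and mir-145 and mir-143, which are known from smooth muscle, lay 11.4 Mb away in the cow and 9.53 Mb in the cat.

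**Figure D5:**
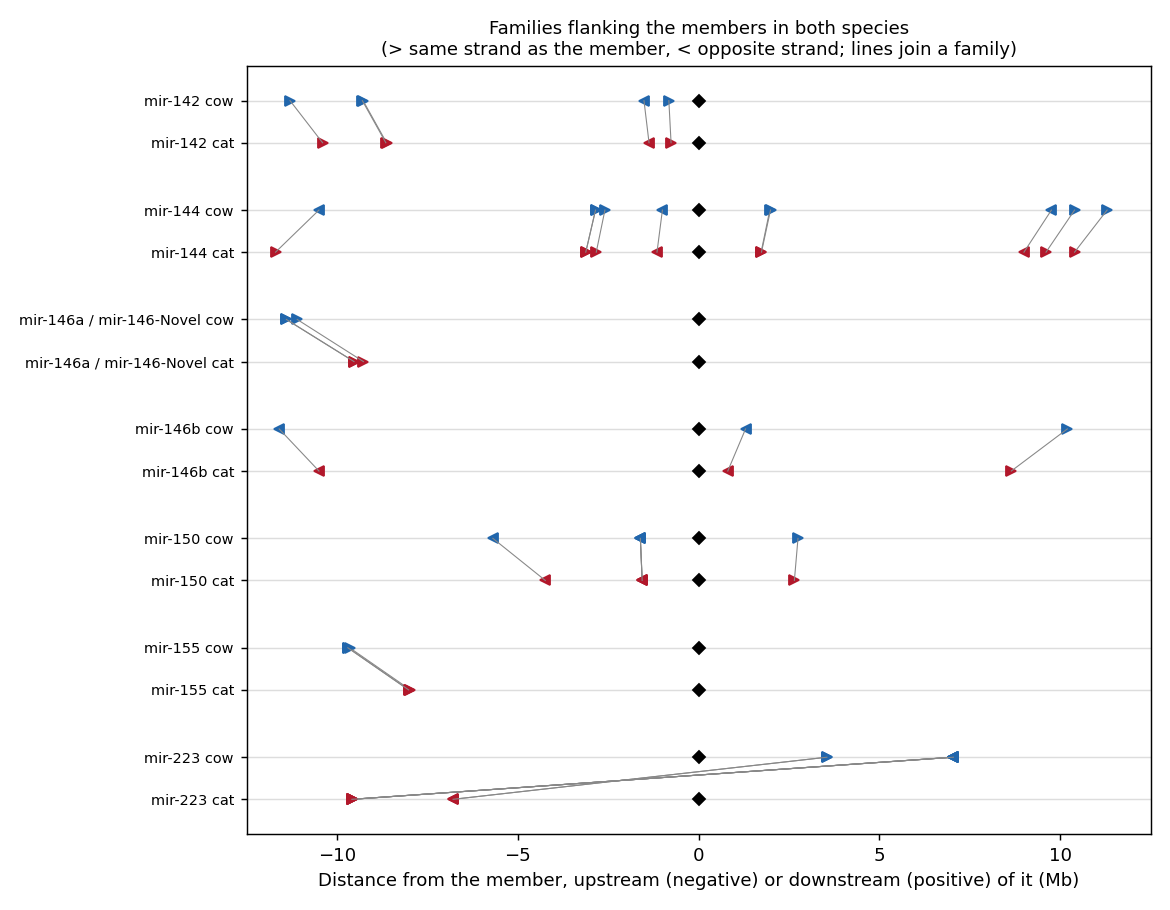
Families found near a member in both species, by distance from the member in Mb (negative upstream, positive downstream along its strand), with cow in blue, cat in red and a line joining each family. Arrowheads pointing right mark the strand of the member and those pointing left the opposite strand. Families far from the member in either species are not drawn. Among these are the 4 families that kept side and strand for mir-223 within 20 Mb. The drawn lines cross to the other side of the member only for mir-223.

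For mir-223, on the X chromosome in the cow, 8 families were shared within 10 Mb, and none of them kept its side and strand. The let-7 and mir-98 loci lay 3.55 Mb downstream on the same strand in the cow and 6.79 Mb upstream on the opposite strand in the cat. The group of mir-502, mir-660, mir-500, mir-362, mir-188 and mir-532 lay 7.03 to 7.05 Mb downstream on the opposite strand in the cow and 9.58 to 9.59 Mb upstream on the same strand in the cat. Both side and strand were thus turned for all 8. Within 20 Mb, 12 families were shared and 4 kept side and strand. These were mir-222 and mir-221, 3.6 Mb upstream in the cow and 12.8 Mb in the cat, and mir-421 and mir-374, 17.9 Mb downstream in the cow and 6.96 Mb in the cat. Of the 198 pairs, 10 shared a family within 10 Mb without keeping the side and strand of the nearest, 3 of them on the bovine X chromosome. In 9 of these 10 pairs no shared family kept its side and strand, and 7 of the 9 shared at least 2 families. In 3 pairs, both side and strand were turned for every shared family, and 2 of these pairs shared at least 2 families. A turned stretch in a genome and a turned stretch in its assembly cannot be told apart from these positions.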

How the data were processed

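Small RNA reads of 10 bovine and 4 feline libraries were trimmed by the authors with cutadapt 1.15 and aligned with Bowtie 1.2.11, with SAMtools also named in the submitters' processing notes. They called precursors and products with miRWoods, 2 stacked random forests, on all libraries of a species together, leaving out reads with over 10 genomic hits. The deposited values are the authors' starts and ends (counted from 1), strands and names. They hold no read number, and read numbers the study gives elsewhere were not used here, so no depth is given for a locus. The build is not named in the sources used here, although the feline sequence names carry version numbers. No genome was used, and sequences were not analysed here.

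Positions were read with Python 3.11.15 and plotted with matplotlib 3.10.9, and the scripts were tested on simulated data. Gaps are those between spans on either strand. All members were named, with every locus within 10 kb or, failing that, the nearest. Their genes were looked up in the RefSeq table by name, where 7 of 7 bovine members matched. Some gene neighbours are not reported here. Members and lists were chosen with earlier results of these data known. Alternatives covered the distance limit, strand, names, product length, averages and the measure of spacing.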

Additional observations from a re-analysis of the deposited data

How the results depend on the processing

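Of the 29 alternatives run, 21 left a value within the limit used, a factor of 1.5 for counts, and 8 moved it. Bovine members with a neighbour fell from 1 to 0 at a limit of 1 kb or 5 kb and with loci of the same strand only, and rose to 3 at 50 kb. The 2 feline members with a neighbour stayed 2 under every limit and strand choice run. Feline members fell from 8 to 4 with plain names only. The median start distance of 37 nt became a median gap of 16 nt in the cow and 14 nt in the cat when taken between the facing ends of the products, which is another quantity. Equally spaced families rose from 1 to 3 with a difference of 1 nt allowed. The comparison of flanking families, its limit of 10 Mb and the limits of 5 Mb and 20 Mb (4 and 6 of 6 pairs sharing a family) and pairs of the same plain name only (1 of 3 equal, beside 79.1% of 139) were chosen after seeing the data. The planned comparison of bovine product spacing with reference mature sequences was not run, as no such sequences were used here. No paired analysis was possible because each species has 1 call set and no test was made. With no replicate call sets, and with read numbers not used here, the error of a product end was not estimated, and a locus missing from a set is not shown to be absent from the animal.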

Other observations

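Other families known from blood and immune cells were counted beside the members. Each of the 15 families mir-181, mir-15, mir-16, mir-21, mir-125, mir-17, mir-92, mir-221, mir-222, mir-126, mir-24, mir-27, mir-23, mir-29 and mir-486 had a locus in both species, with 33 loci in the cow and 35 in the cat. The share over all families was not counted, so nothing about blood or immune microRNAs is read from this count. mir-181, a regulator of lymphocyte development, had the most, with 6 loci in each species, followed by mir-29 with 5 in each. mir-15 and mir-16 each had 2 bovine and 3 feline loci. One feline pair of these repeated the lengths (63 and 67 nt) and the gap (76 nt) of fca-mir-15a and fca-mir-16-1. Whether it is a separate site was not determined. mir-486 had 1 bovine and 2 feline loci under this count, which leaves out antisense names. The feline loci fca-mir-486-1 and fca-mir-486-2 overlapped each other, as did bta-mir-486 and the antisense as-bta-mir-486, so the count of 1 against 2 follows the names and not a further feline site.

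The order in which the products of a hairpin were listed differed between loci. The 5p product came first for 6 of the 7 bovine members with both arms and for 6 of the 7 feline ones. Over all loci with both arms it came first for 298 of 587 in the cow (50.8%) and 182 of 325 in the cat (56%). mir-223 was the member that listed its 3p product first, in both species. No source used here says what the order stands for.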
